A study of Mus musculus with 24 samples.

Results

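Cochleae of mice without the α9 nicotinic receptor subunit were compared before hearing, at postnatal day 7 (P7), and at the onset of hearing, at P13. The comparison used 6 of the 24 arrays of the study, namely the 3 labelled cochlea, knockout, P13 and the 3 labelled cochlea, knockout, P7, and all 18195 genes that a probe set names alone. The whole study also holds wild type cochleae at both ages and both genotypes at P3 and P60, again with 3 arrays per group. Every animal of the 6 arrays, of either age, lacked the α9 gene (Chrna9) from conception in all cells, and all were hybrids of 129S6 and CBA/CaJ that had been backcrossed to CBA/CaJ. Each array carried RNA of a pool of cochleae from several mice, and the sex of the animals in a pool is not given in the labels. The methods describe removal of cerebellar fragments, semicircular canals and the auditory nerve before freezing, and the rest of the cochlea was kept whole.

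The α9 subunit forms, with α10, the acetylcholine receptor through which efferent fibres of the brainstem inhibit hair cells. In the interval studied, efferent contacts move from inner to outer hair cells, the tectorial membrane is completed, the stria vascularis builds up the potassium-rich fluid that drives hair cell currents, and the ear canal opens to sound. The temporal bone around the cochlea ossifies over the same days and its marrow spaces fill with blood-forming cells. In such bulk tissue, fewer cells of a type and less RNA per cell cannot be told apart.

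Values are log2 signals after quantile normalization over all 24 arrays, and a gene was said to rise or fall when the limma comparison of P13 with P7 gave an adjusted p under 0.05. Array pairs of the same age correlated at 0.971 to 0.985 over genes at P7 and at 0.980 to 0.990 at P13, and pairs of different age at 0.954 to 0.975. The difference between 3 prime and 5 prime signal of the Gapdh control, a measure of RNA integrity, lay between -0.150 and 0.848 on the 6 arrays and did not differ detectably between the ages (P7, 0.38 ± 0.47; P13, 0.01 ± 0.28; SD, n = 3 each; two-sided exact permutation p = 0.2, where 0.1 is the smallest p that 3 against 3 allows). The same control reached 6.47 on the wild type arrays of P7 and P13. Several pools stood apart in markers of other tissues. P7 replicate 2 was high in growth plate cartilage (Col10a1, 13.14 against 8.09 and 7.07 in replicates 1 and 3). P7 replicate 3 was high in the epidermal keratin Krt1 (8.40 against 6.488 and 5.03), and P13 replicate 1 was low in central myelin genes against the other P13 pools (Mobp, 5.69 against 10.07 and 10.06). The Y-linked gene Eif2s3y was at 2.82 in P7 replicate 1 and between 7.94 and 9.86 in the other 5 pools. Added poly-A control transcripts measured 9.23 on P7 replicate 2 and 9.99 on P13 replicate 1 (log2), and 4.35 to 7.19 on the other 4 arrays, where they were taken as absent (under 8). With the presence of this signal as a block 977 genes rose and 651 fell, and within the 4 arrays without it 1262 and 1798, against the 793 and 531 of all 6 arrays.

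The brightest probe set of the targeted gene gave no detectable change between the ages. Differences of the 3 probe sets of the gene ranged from -0.51 to 0.06, and 0 of them passed. Chrna9 (chr5:65934854-65977486, GRCm38.p6) measured 5.62, 5.17 and 5.02 at P7 and 5.37, 5.22 and 5.19 at P13. The difference was -0.01 with a 95% confidence interval of -0.46 to 0.43 (adjusted p = 0.978), and since the probe sets are not known to lie in the deleted part, the level does not check the genotype. Markers of the labelled tissue gave signal on all arrays: the gap junction gene Gjb2 measured 11.05 to 12.98, the fibrocyte gene Coch 10.53 to 13.63 and the neurofilament gene Nefl 10.99 to 12.51. Of the hair cell markers, Myo7a measured 7.26 to 8.09 and Otof 7.04 to 7.98, and the probe set of Slc26a5, which encodes the outer hair cell motor prestin, stayed between 4.25 and 4.75.

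From P7 to P13, 793 genes rose and 531 fell in the α9-/- cochlea, which is 4.36% and 2.92% of all genes tested. Every list count below is to be read against these shares. At the threshold of the methods, which adds a log2 difference of at least 1.5, 230 genes rose (1.26%) and 57 fell (0.313%). The median difference over all genes was -0.08. With the deposited values used without the further quantile step that median was 0.14 and 89.2% of the genes that passed had risen, against 59.9% here. Without P13 replicate 2 the counts fell to 264 and 80, without P13 replicate 3 to 304 and 80 and without P7 replicate 3 to 300 and 94. Without P7 replicate 1 they were 583 and 207, without P7 replicate 2 they were 667 and 670, and without P13 replicate 1 they were 968 and 865.

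The largest increases were mostly in genes of blood-forming and lymphoid cells. Fcrla, an Fc receptor-like protein of B lymphocytes, measured 5.45, 4.54 and 5.35 at P7 and 9.33, 9.84 and 9.40 at P13. It rose by 4.41 ± 0.27 (log2, SE; adjusted p = 0.000257), a fold of 21.2. Ppbp, a platelet chemokine, rose by 3.99 ± 0.41. Chil3, a secreted chitinase-like protein of myeloid cells, stood at 7.66, 6.98 and 7.25 and then at 11.30, 11.13 and 11.02, an increase of 3.85 ± 0.21. The other blood genes among the 12 were H2-Ob (3.72 ± 0.19), which encodes a chain of the MHC class II chaperone H2-O, the lymphoid transcription regulators Spib (3.68 ± 0.29) and Pou2af1 (3.53 ± 0.24), the red cell membrane protein gene Epb42 (3.48 ± 0.47) and the B lymphocyte gene Niban3 (3.05 ± 0.19).

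Inmt, Glra3, Rarres1 and Slc4a11 completed the 12 largest increases. Inmt, which encodes an indolamine and thioether methyltransferase, measured 6.86, 6.66 and 6.75 at P7 and 10.30, 10.82 and 11.07 at P13. Its difference was 3.98 ± 0.22 (adjusted p = 0.000139). Glra3, a glycine receptor subunit, rose from 4.003, 4.05 and 3.22 to 6.31, 8.02 and 8.01, with P13 replicate 1 the lowest of its age. Its difference was 3.69 ± 0.46 (adjusted p = 0.00466). Rarres1, a gene induced by retinoids, rose by 3.32 ± 0.27. The deposited values carry no detection calls, so for genes as dim at P7 as Glra3 and H2-Ob (3.49 to 3.99) the difference may understate the change.

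The 12 largest decreases held genes of immature muscle, of the tectorial and otoconial matrix and of bone-resorbing cells. Myh8, the perinatal myosin heavy chain, measured 8.24, 8.20 and 7.34 at P7 and 4.12, 3.63 and 4.10 at P13, and fell by 3.98 ± 0.27 (adjusted p = 0.00044). Crym, a thyroid hormone-binding protein, fell from 9.24, 9.14 and 8.55 to 5.71, 6.67 and 5.92. Mdk, a heparin-binding growth factor of embryonic tissue, fell from 11.77, 11.99 and 11.88 to 9.90, 9.70 and 9.70. These values did not overlap between the ages, which was part of the rule that chose the genes. The chemokine Ccl9 fell by 2.56 ± 0.28, the Notch-related Dlk1 by 2.44 ± 0.20, the potassium channel subunit Kcne3 by 2.38 ± 0.33 and the receptor tyrosine kinase Mst1r by 2.11 ± 0.26. Tceal7 fell by 2.29 ± 0.25, Atp1b4 by 2.15 ± 0.37 and Ocstamp, needed for the fusion of osteoclasts, by 2.12 ± 0.46. With 1 array left out at a time, Atp1b4 no longer passed without P13 replicate 2 (adjusted p = 0.0643), and Ocstamp passed only without P13 replicate 1 (adjusted p of up to 0.124 otherwise). The other 22 of the 24 genes passed in all 6 of these fits.

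**Figure D1:**
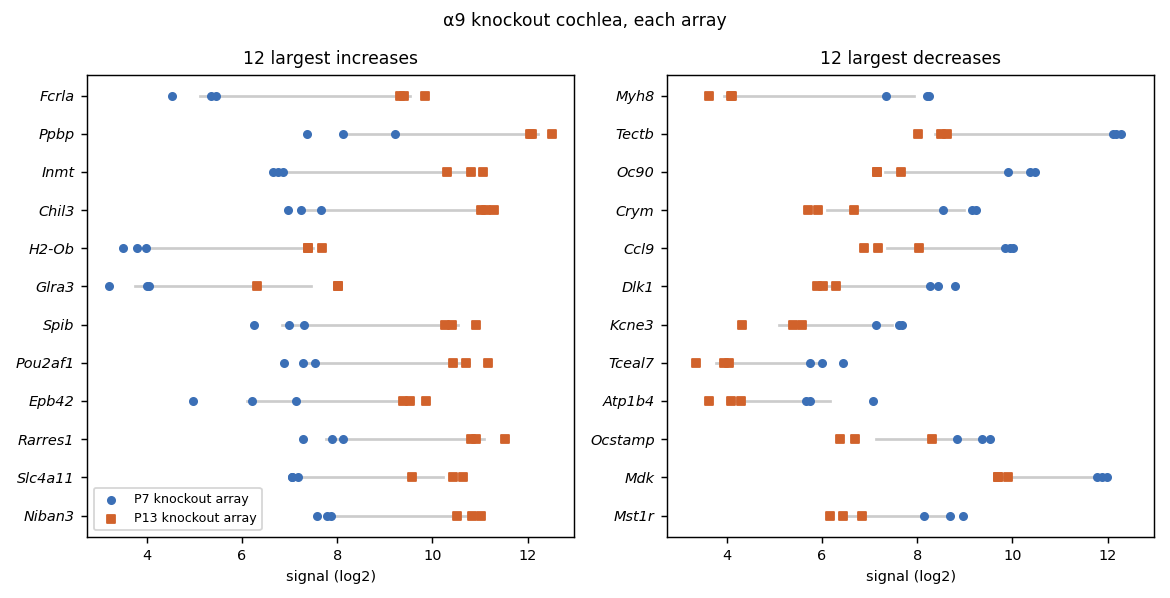
Signal (log2) of the 12 genes with the largest increases and the 12 with the largest decreases on each of the 3 P7 and 3 P13 knockout arrays, with a grey line between the means of the ages. The arrays of the ages do not overlap for any of the 24 genes, which was part of the rule that chose them, and Ocstamp has 1 P13 array at 8.31, near its lowest P7 array at 8.84.

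Genes of the neutrophil lineage rose together. Of 16 measured members of the list, 14 rose and 0 fell, the other 2 did not pass, and the median difference was 1.96 against -0.08 over all genes. The granule proteases Elane and Prtn3 and the peroxidase Mpo are made in promyelocytes, the granule-forming precursors. Mpo measured 9.20, 7.90 and 8.76 at P7 and 11.94, 11.52 and 11.33 at P13, a difference of 2.98 ± 0.33 (adjusted p = 0.00288). Elane rose by 2.94 ± 0.26 and Prtn3 by 2.91 ± 0.35. Between 13 and 14 members rose with any 1 array left out, and all 16 were higher on each P13 array than on each P7 array, where 13.2% of all genes were.

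Erythroid genes moved the same way. Of 22 measured members, 15 rose and 0 fell, with a median of 1.56. Epb42 (chr2:121017891-121036877), which links the red cell skeleton to its membrane, measured 7.14, 4.97 and 6.20 at P7 and 9.38, 9.53 and 9.86 at P13, so that the P7 pools differed widely while the P13 pools lay together. Hemgn, a nuclear protein of erythroid precursors, rose by 2.75 ± 0.35, the blood group glycoprotein gene Kel by 2.54 ± 0.37 and Ermap by 2.29 ± 0.34. The globin gene Hba-a1, taken as a marker of marrow in a pool, did not pass (1.33 ± 0.39, adjusted p = 0.0809). The transcription factors Klf1 and Gata1, picked after their values were seen, rose by 1.71 ± 0.34 and 1.41 ± 0.27. Neither passed without P7 replicate 3 or P13 replicate 2 or replicate 3 (adjusted p of up to 0.0916). The count was 8 without P7 replicate 3 and 7 without P13 replicate 2 or replicate 3, and 13 to 16 without each of the other arrays. P7 replicate 2, the pool high in cartilage genes, had the lowest mean over the erythroid list (7.34, against 8.33 and 8.04).

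B lymphocyte genes rose in 12 of 17 measured members, with 0 that fell and a median of 1.30. Blnk, an adaptor of the B cell receptor, measured 8.003, 7.96 and 8.06 at P7 and 10.52, 10.46 and 10.68 at P13, a difference of 2.55 ± 0.15 (adjusted p = 0.000242). Vpreb3, expressed in B cell precursors, rose by 2.65 ± 0.25, and Ms4a1, which encodes CD20, by 2.49 ± 0.17. The count ranged from 9 to 11 with 1 array left out. Cd79a, a chain of the B cell receptor, did not pass (1.03 ± 0.39, adjusted p = 0.153). Among T and NK lymphocyte genes 3 of 13 rose, led by the interleukin receptor gene Il7r (3.02 ± 0.16), which B cell precursors also express, and the median of that list was -0.05. In the macrophage list 3 of 18 rose and Cd68 fell by 1.36 ± 0.29, with a median of -0.05. In the MHC class II list 3 of 9 rose (H2-Ob, H2-Aa and Cd74). The eosinophil peroxidase gene Epx, also taken as a marrow marker, did not pass (0.67 ± 0.48, adjusted p = 0.424). In the list of eosinophils, basophils and mast cells 2 of 13 rose, the eosinophil granule gene Prg3 (1.66 ± 0.23) and the basophil protease Mcpt8 (1.25 ± 0.28), and 2 mast cell proteases fell, Cma1 by 1.08 ± 0.16 and Tpsb2 by 1.12 ± 0.21. Of these, Cd68 passed without P13 replicate 1 alone, Mcpt8 without P7 replicate 1 alone, Cd74 without P7 replicate 1 or P13 replicate 3, and Tpsb2 without P7 replicate 2 or replicate 3 or P13 replicate 1, and each missed the threshold without any of the other arrays (adjusted p of up to 0.137).

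Cell cycle genes, whose products replicate and segregate chromosomes, rose in 28 of 63 measured members, and 1 fell (Ccnd1, by 0.89, named after its value was seen). The share that rose was 44.4%, against 4.36% of all genes, and the median was 0.70. Mki67, a nuclear protein of dividing cells, measured 11.07, 10.54 and 11.14 at P7 and 12.54, 12.63 and 12.73 at P13, a difference of 1.72 ± 0.20 (adjusted p = 0.00319). Rrm2, a subunit of ribonucleotide reductase, rose by 1.61 ± 0.18, Ccne2 by 1.45 ± 0.23 and the replication licensing factor Cdc6 by 1.32 ± 0.18. Of 63 members, 48 were higher on each P13 array than on each P7 array, where 13.2% of all genes were. The count fell to 11 without P7 replicate 3 or P13 replicate 3 and to 9 without P13 replicate 2, and was 22 to 27 without each of the others. Ccne2 did not pass without P13 replicate 3 (adjusted p = 0.0544). The erythroid, neutrophil and B lymphocyte lists moved with it in the same pools, and their part in the cell cycle increase was not tested.

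**Figure D2:**
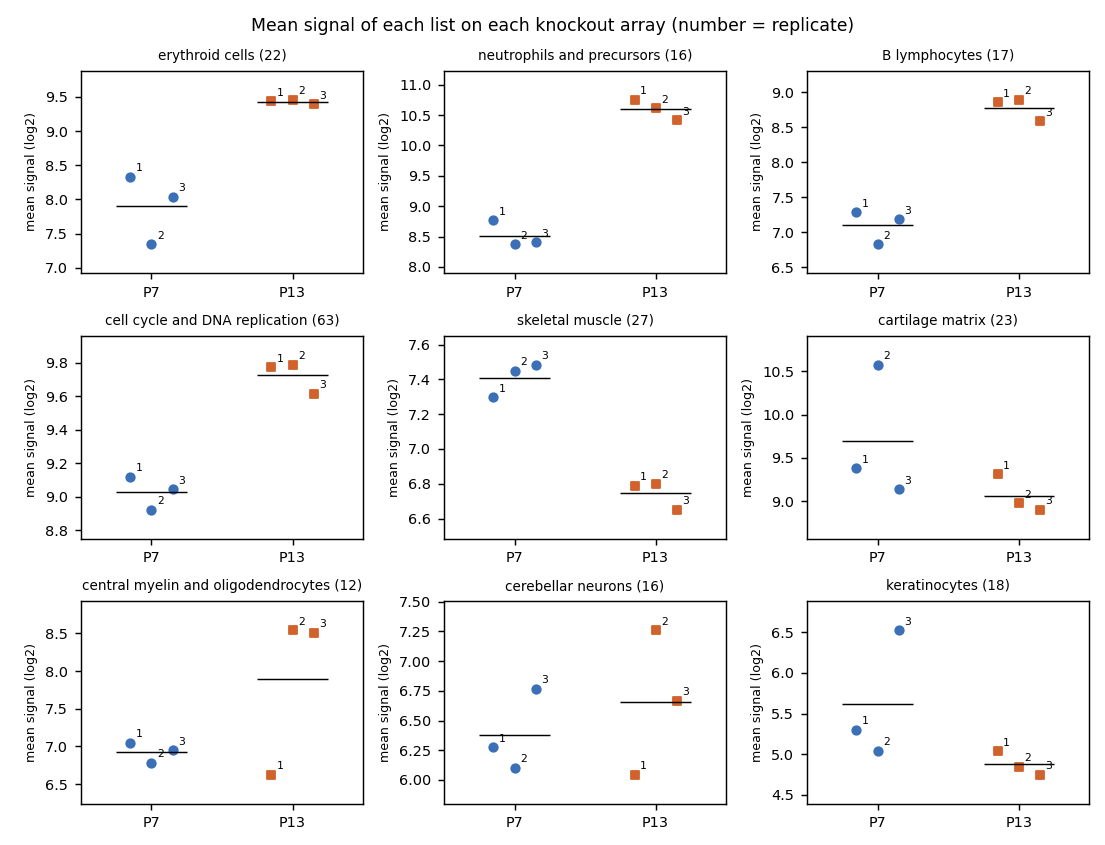
Mean signal (log2) over the measured members of 9 lists, in parentheses their number, on each knockout array, with the replicate number beside each point and a line at the mean of each age. The blood lists and the cell cycle list are higher on all P13 arrays, skeletal muscle is lower on all of them, and single pools stand apart for cartilage (P7 replicate 2, 10.57), keratinocytes (P7 replicate 3, 6.53) and central myelin (P13 replicate 1, 6.62).

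Promoter stretches are shown for genes that moved together, with the short motifs a textbook account of each cell type would name, chosen after the values were known. Sequences are from RefSeq (GRCm38.p6), written 5′ to 3′ on the strand of the gene, in lower case, with each match to a motif in capitals. The 250 bases before the transcription start were searched on both strands, with a gene counted once over its promoters. For the cell cycle, the motifs were TTTGAA, the core of the cell cycle homology region, and CCAAT. Of the 28 cell cycle members that rose, 24 had a promoter in the table, and 10 of these held TTTGAA (41.7%, against 18.3% of all genes with a promoter) and 20 held CCAAT (83.3%, against 37.5%). The 34 members that did not pass had a promoter for 26, of which 5 held TTTGAA (19.2%) and 17 held CCAAT (65.4%).
Mki67, chr7:135716460-135716579, minus strand: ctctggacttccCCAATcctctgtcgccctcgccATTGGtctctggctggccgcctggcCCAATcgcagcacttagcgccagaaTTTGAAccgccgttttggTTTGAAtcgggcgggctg
Ccnb2, chr9:70421571-70421721, minus strand: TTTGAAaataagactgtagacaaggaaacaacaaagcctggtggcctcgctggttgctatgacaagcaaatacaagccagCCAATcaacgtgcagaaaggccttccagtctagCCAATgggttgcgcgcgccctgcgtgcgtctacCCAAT
Ccnb2 encodes a mitotic cyclin and rose by 1.08 ± 0.17, a call lost without P7 replicate 3 or P13 replicate 2 (adjusted p of up to 0.0598). The Mki67 stretch holds 5 matches and the Ccnb2 stretch 4.

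For the erythroid list the motif was AGATAA, bound by GATA factors. It was in 4 of the 11 members that rose and had a promoter (Epb42, Icam4, Kel and Rhd; 36.4%), in 2 of the 6 that did not pass (33.3%) and in 11.4% of all genes. For the neutrophil list it was GAGGAAGT, an ETS factor motif, held by 4 of 14 (Elane, Mpo, Prtn3 and S100a8; 28.6%) that rose, by 1 of the 2 that did not pass and by 2.79% of all genes. For the B lymphocyte list it was the octamer ATGCAAAT, in 2 of 8 that rose (Blnk and Vpreb3), in 0 of 5 that did not pass and in 1.81% of all genes.
Epb42, chr2:121037008-121037127, minus strand: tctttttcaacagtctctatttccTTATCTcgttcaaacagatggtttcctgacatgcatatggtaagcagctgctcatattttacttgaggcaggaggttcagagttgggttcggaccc
Kel, chr6:41704326-41704445, minus strand: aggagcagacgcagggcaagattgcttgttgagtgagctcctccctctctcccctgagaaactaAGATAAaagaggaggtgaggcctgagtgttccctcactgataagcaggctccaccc
Elane, chr10:79886171-79886290, plus strand: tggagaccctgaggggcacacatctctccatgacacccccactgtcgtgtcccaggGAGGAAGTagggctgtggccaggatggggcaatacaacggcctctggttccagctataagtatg
Prtn3, chr10:79879516-79879635, plus strand: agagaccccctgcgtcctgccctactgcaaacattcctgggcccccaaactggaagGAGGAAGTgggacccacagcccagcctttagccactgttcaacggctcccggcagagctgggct
Vpreb3, chr10:75948180-75948299, plus strand: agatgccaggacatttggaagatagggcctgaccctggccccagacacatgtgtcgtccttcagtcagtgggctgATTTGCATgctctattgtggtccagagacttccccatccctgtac
The last base of the match lay 221 bases upstream of the start in Epb42, 51 in Kel, 78 in Elane, 88 in Prtn3 and 38 in Vpreb3.

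Both tectorin genes of the tectorial membrane and an otoconial gene fell. Of 6 measured members of the tectorial and otolithic list 3 fell and 0 rose, with a median of -1.07. Tectb (chr19:55180726-55196313) encodes β-tectorin, a glycoprotein of the tectorial membrane, and measured 12.12, 12.18 and 12.28 at P7 and 8.02, 8.62 and 8.51 at P13. It fell by 3.81 ± 0.19 (adjusted p = 0.000139), a fold of 14.04. Tecta, which encodes α-tectorin of the same membrane, went from 8.76, 8.67 and 8.48 to 7.09, 7.12 and 6.83 and fell by 1.62 ± 0.17. Oc90, the main matrix protein of otoconia, went from 9.90, 10.36 and 10.48 to 7.66, 7.16 and 7.15 and fell by 2.93 ± 0.22. All 3 genes passed with any 1 array left out. Otoa, which attaches the tectorial membrane to the spiral limbus, did not pass (-0.06, 95% confidence interval -0.47 to 0.35).

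Genes of the fibrocytes of the spiral ligament and limbus rose in 5 of 14 measured members, with 0 that fell and a median of 0.81. Coch (chr12:51593283-51606619), which encodes the extracellular matrix protein cochlin, measured 11.13, 10.53 and 10.63 at P7 and 12.99, 13.63 and 13.61 at P13, an increase of 2.65 ± 0.24 (adjusted p = 0.00143). Slc4a11, a membrane transporter of fibrocytes, went from 7.18, 7.06 and 7.04 to 9.57, 10.64 and 10.44 and rose by 3.12 ± 0.27. Otos, which encodes otospiralin, rose by 1.87 ± 0.16 from an already high 12.30 ± 0.09 (SD, n = 3). Apod rose by 1.72 ± 0.19 in its brightest probe set, while its other probe set gave -0.09. Aqp1 rose by 1.10 ± 0.26, and this call was lost without P7 replicate 3 or any of the P13 arrays (adjusted p of up to 0.143).

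Transport genes of the stria vascularis and its neighbours rose in 4 of 13 measured members, with a median of 0.73. Slc26a4 encodes pendrin, an anion exchanger of the spiral prominence, and measured 7.37, 6.98 and 7.03 at P7 and 8.93, 9.45 and 9.95 at P13, a difference of 2.31 ± 0.26 (adjusted p = 0.00319). The inward rectifier channel Kcnj16 rose by 2.11 ± 0.31, the Na,K-ATPase subunit Atp1b1 by 1.16 ± 0.21 and the sodium, potassium and chloride cotransporter Slc12a2 by 0.82 ± 0.20. The potassium channel genes taken as markers of the stria did not pass: Kcnq1 gave 0.59 (95% confidence interval 0.11 to 1.08, adjusted p = 0.13), Kcne1 0.29 (-0.39 to 0.98) and Kcnj10 0.94 (0.18 to 1.70, adjusted p = 0.126). The count of 4 fell to 2 without P7 replicate 3 or P13 replicate 2 or replicate 3, where Atp1b1 and Slc12a2 no longer passed (adjusted p of up to 0.173). Slc12a2 also did not pass without P7 replicate 1 or replicate 2. Among connexins, 1 of 11 rose: Gjb6 measured 11.24, 10.58 and 11.05 at P7 and 12.08, 12.31 and 12.66 at P13, a difference of 1.39 ± 0.23 that was lost without P7 replicate 3 or P13 replicate 2 or replicate 3 (adjusted p of up to 0.056). Its partner Gjb2 gave 0.86 (0.02 to 1.71, adjusted p = 0.192). In the list of carbonic anhydrases and acid-base transport 4 of 17 rose and 1 fell (Car8, by 1.81 ± 0.40). Among those that rose were the carbonic anhydrases Car1 (2.03 ± 0.32), which is also an erythroid gene, and Car2 (1.70 ± 0.27). Without P7 replicate 3 or P13 replicate 2 neither Car1 nor Car2 passed, nor did Car1 without P13 replicate 3 (adjusted p of up to 0.0569). The call of Car8 was lost without P7 replicate 2 or replicate 3 or P13 replicate 1 or replicate 3 (adjusted p of up to 0.124). Of the melanocyte genes 2 of 13 rose, Dct by 1.70 ± 0.24 and Tyr by 1.18 ± 0.29, where the call of Tyr was lost without any array but P13 replicate 1 (adjusted p of up to 0.158).

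**Figure D3:**
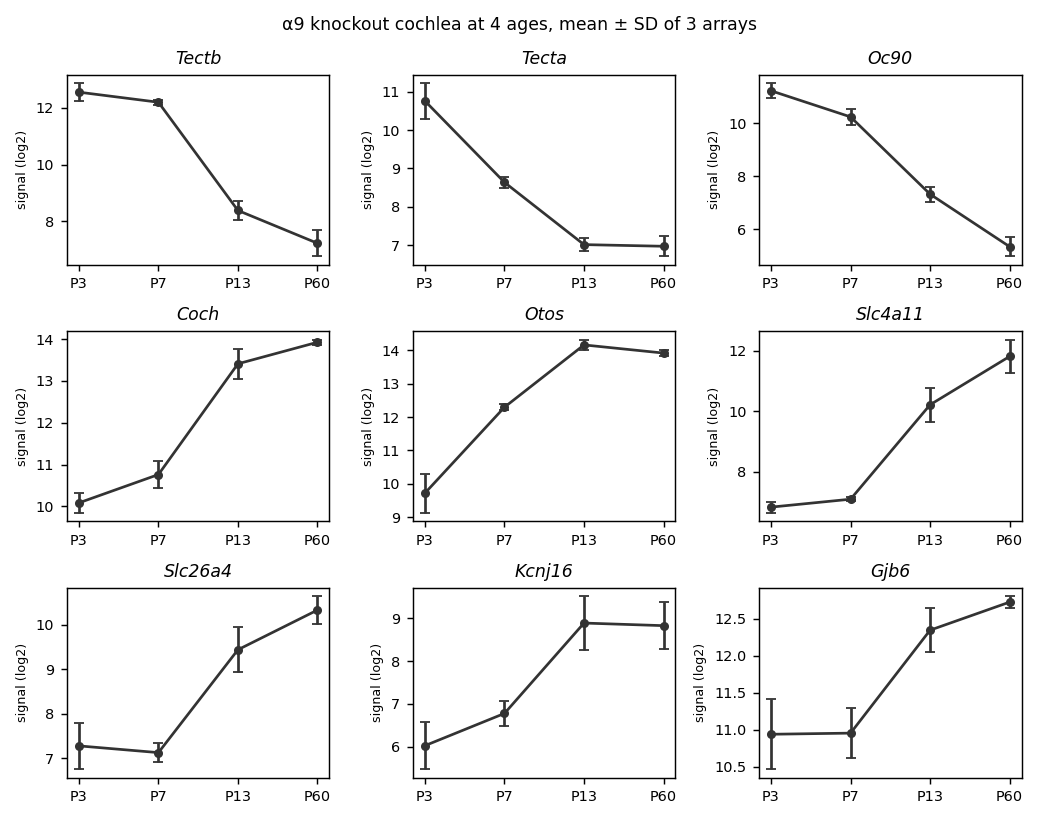
Signal (log2) of 9 cochlear genes in the knockout at P3, P7, P13 and P60, as mean ± SD of 3 arrays per age. Tectb stays near 12 at P3 and P7 and is at 8.38 at P13, Tecta is lower at each age up to P13, and Coch, Slc4a11 and Slc26a4 are close at P3 and P7 and higher at P13.

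The wider time course set the interval apart for some of these genes. Mean Tectb was 12.55 at P3, 12.19 at P7, 8.38 at P13 and 7.23 at P60. Tecta had its larger difference earlier, from 10.76 at P3 to 8.64 at P7. Coch was at 10.09 and 10.76 at P3 and P7, and Otos had already gone from 9.72 to 12.30 between these ages. Changes outside P7 to P13 were not tested.

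Few hair cell genes passed at this precision, where 4.36% of all genes rose and 2.92% fell. In lists of this size, counts of 0 or 1 are too small to be set apart from those shares. In the lists of the hair bundle (26 measured), the ribbon synapse (18) and hair cell transcription factors (12), 0 members rose or fell, with medians of -0.02, 0.17 and -0.10. By limma's unadjusted p under 0.05, 3 were higher and 1 lower in the first, 2 and 0 in the second and 1 and 1 in the third. In the outer hair cell list 1 of 13 rose: Kcnn2, which encodes the SK2 channel that α9α10 receptors activate, measured 6.25, 5.78 and 5.67 at P7 and 6.69, 7.49 and 7.61 at P13. It rose by 1.36 ± 0.28 (adjusted p = 0.0263), a call that was lost without P7 replicate 2 or replicate 3 or P13 replicate 2 or replicate 3 (adjusted p of up to 0.11). Its lowest P13 value was in replicate 1, the pool low in central myelin genes, and the part of central tissue in this increase was not tested. Myosin VIIa (Myo7a) gave -0.12 (95% confidence interval -0.67 to 0.42), otoferlin (Otof), needed for transmitter release, -0.29 (-0.84 to 0.27), and the transduction channel gene Tmc1 0.02 (-0.61 to 0.65). Among nicotinic receptor subunits 1 of 15 fell (Chrna3, by 1.04 ± 0.25, which a different probe set gave as 0.30, and which passed without P7 replicate 2 but not without any of the other arrays, with an adjusted p of up to 0.173), and in the list of supporting cells and Notch 1 of 26 rose.

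Neuronal genes of release and excitability rose in small numbers, where 4.36% of all genes rose and 2.92% fell. In the list of synaptic vesicle and SNARE proteins 4 of 25 rose, with 0 that fell and a median of 0.53. Snap25, a SNARE of the presynaptic membrane, measured 10.61, 9.74 and 10.27 at P7 and 11.46, 12.31 and 12.38 at P13, a difference of 1.84 ± 0.31 (adjusted p = 0.0125). Vamp1 rose by 1.57 ± 0.32, Syt2 by 1.30 ± 0.32 and Napb by 1.03 ± 0.23, where the probe sets of Napb ranged from -0.49 to 2.24. Of 12 sodium channel genes, 3 rose and 1 fell. Scn4b, a β subunit, went from 7.51, 6.298 and 7.18 to 8.43, 9.28 and 9.13 and rose by 1.95 ± 0.34. Scn8a, the channel of nodes of Ranvier, rose by 1.34 ± 0.32 and Scn7a by 2.13 ± 0.39, while the developmental channel Scn3a fell by 1.80 ± 0.38. The call of Scn3a was lost without any array but P13 replicate 1 (adjusted p of up to 0.0981), and its other probe set gave -0.08. Of 25 potassium and HCN channel genes 4 rose, led by the axonal channel Kcna2 (1.54 ± 0.29). The neurofilament list had 3 of 21 that rose, of which Nefl by 1.01 ± 0.25. Nefh gave 1.27 (95% confidence interval 0.52 to 2.03, adjusted p = 0.056). Gata3, taken as a marker of spiral ganglion neurons, gave 0.27 (-0.58 to 1.13). In the calcium buffer list 3 of 16 rose: Calb2, which encodes calretinin, by 1.93 ± 0.34, S100b by 1.61 ± 0.17 and S100a1 by 1.40 ± 0.25. The counts of the synaptic, sodium, potassium and neurofilament lists rested on few arrays: without P7 replicate 3, P13 replicate 2 or P13 replicate 3 those that rose were 0, except for 1 neurofilament gene without P7 replicate 3, while without P13 replicate 1 they were 7, 4, 9 and 8. In the calcium buffer list the count was 1 without each of the first 3 arrays, with S100b the gene that passed in all 6 fits.

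P13 replicate 1 had lower values than the other P13 pools for these genes and for central myelin and glia. Over the central myelin list, of which 1 of 12 members rose (Ndrg1), the mean was 6.62 in that pool, 8.55 and 8.51 in the other P13 pools and 6.78 to 7.05 at P7. The oligodendrocyte gene Mog measured 4.29 there and 7.51 and 7.61 in the others, and the astrocyte water channel Aqp4 7.20 against 9.87 and 10.02. Without this pool 7 members of the central myelin list, 7 of 20 Schwann cell myelin genes and 7 of 13 astrocyte genes rose, against 1, 1 and 2 with it. The part of central tissue in the neuronal increases was not tested. Cerebellar markers were uneven too, with Gabra6 at 3.90, 7.03 and 5.35 in P13 replicates 1, 2 and 3 and at 3.50 to 4.06 at P7. Of the 16 measured genes of cerebellar neurons 0 rose and 1 fell, Car8, which is also in the list of carbonic anhydrases and acid-base transport. The means over that list were 6.04, 7.26 and 6.67 at P13 and 6.10 to 6.77 at P7. In the list of GABA receptors and synthesis, to which Gabra6 belongs, 0 of 16 rose or fell by limma, 1 was higher and 0 lower by the unadjusted p under 0.05, and 0 to 3 rose when 1 array was left out, with a median of 0.44 and list means of 5.06, 6.52 and 5.43 at P13 against 5.15 to 5.21 at P7. In the list of ionotropic glutamate receptors it was 0 of 15, with 1 higher and 1 lower by the unadjusted p, and up to 1 in each direction when 1 array was left out.

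Of 17 measured imprinted and fetal growth genes 7 fell (41.2%, against 2.92% of all genes) and 1 rose, with a median of -0.50. Igf2, the fetal insulin-like growth factor, measured 13.51, 13.44 and 13.43 at P7 and 12.34, 12.11 and 11.93 at P13, and fell by 1.34 ± 0.17 (adjusted p = 0.0044). Dlk1 fell by 2.44 ± 0.20, Mest by 1.54 ± 0.18 and the cell cycle inhibitor Cdkn1c by 1.41 ± 0.20. These 4 genes passed with any 1 array left out, while the count was 4 without P13 replicate 2 or replicate 3. Of 36 genes of TGF-β and BMP signalling 5 fell (13.9%) and 0 rose. Among the 5 were the BMP antagonist Nog (1.62 ± 0.27 lower) and the ligand Bmp2 (0.92 ± 0.19 lower). Of 41 Wnt genes 4 fell (9.76%) and 0 rose, led by the secreted inhibitor Sfrp5 (1.44 ± 0.26 lower). Of 35 axon guidance genes 3 fell (8.57%) and 0 rose. They were Efna3 (1.24 ± 0.19 lower), Nrp2 (0.93 ± 0.21 lower) and Efna2 (0.82 ± 0.17 lower). Without P7 replicate 3, P13 replicate 2 or P13 replicate 3 the counts of genes that fell were 0 for TGF-β and BMP, 0 for Wnt and 0 or 1 for axon guidance, and without P7 replicate 1 they were 2, 1 and 1. Of 23 FGF genes 2 rose (8.70%, against 4.36% of all genes), Fgf9 (1.16 ± 0.21) and Fgf1 (1.06 ± 0.22). Both calls were lost without P7 replicate 3, P13 replicate 2 or P13 replicate 3 in turn (adjusted p of up to 0.122).

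Thyroid hormone genes, which time the onset of hearing, rose in 4 of 12 measured members, with 0 that fell and a median of 0.00. Slco1c1, a thyroxine transporter, measured 10.53, 9.63 and 9.52 at P7 and 11.06, 12.005 and 12.15 at P13, a difference of 1.85 ± 0.35 (adjusted p = 0.0215). Thrsp rose by 1.30 ± 0.30, Klf9 by 0.76 ± 0.18 and the transporter Slc16a10 by 0.70 ± 0.15. The receptor gene Thrb gave 0.20 (95% confidence interval -0.30 to 0.70), and Dio2, which encodes the activating deiodinase, -0.77 (-1.25 to -0.28, adjusted p = 0.0673). The count was 0 without P7 replicate 3, P13 replicate 2 or P13 replicate 3 and 1 without P7 replicate 1.

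Skeletal muscle genes fell in 11 of 27 measured members (40.7%) and 1 rose, with a median of -0.70. Next to Myh8, the embryonic myosin heavy chain gene Myh3 went from 5.52, 5.65 and 5.54 to 3.92, 4.004 and 4.04, while Myh4, of adult fast fibres, went from 3.23, 3.77 and 4.31 to 5.33, 7.28 and 6.40 and rose by 2.56 ± 0.47. The slow troponin gene Tnni1 fell by 1.10 ± 0.24. Myh4 did not pass without P7 replicate 1 or P13 replicate 3 (adjusted p of up to 0.0738). Without P7 replicate 3 the count was 3, without P13 replicate 2 or replicate 3 it was 2, and in the fit over all 24 arrays it was 1. Of the markers of muscle in a pool, the actin gene Acta1 fell by 1.01 ± 0.21, a call lost without P7 replicate 3 or P13 replicate 2 or replicate 3 (adjusted p of up to 0.114) and in the fit over all 24 arrays, and Ckm gave -0.70 (adjusted p = 0.11). The muscle of the middle ear and neck is not part of the cochlea, and the amount of it in a pool is not given.

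Skeletal genes were mixed. Of 23 cartilage genes 4 fell and 2 rose. Ihh, a signal of growth plate cartilage, measured 7.03, 8.49 and 6.87 at P7 and 5.68, 5.36 and 5.12 at P13 and fell by 2.07 ± 0.40, and Matn4 fell by 1.60 ± 0.25. The joint lubricant gene Prg4 rose by 2.20 ± 0.21 and Ucma, of unmineralized cartilage, by 1.77 ± 0.18. Ihh was lost without P13 replicate 2 or replicate 3 (adjusted p of up to 0.0925), and the count of 4 was 1 there. Matn1 was at 10.84 in P7 replicate 2 and between 4.26 and 5.99 in the other 5 pools and did not pass (adjusted p = 0.199). Nor did the cartilage collagen gene Col2a1 (-0.32, adjusted p = 0.265) or the bone marker Ibsp (-0.17, adjusted p = 0.516). Of 16 osteoblast and osteocyte genes 3 fell, with Ifitm5 at 12.05, 11.95 and 11.74 and then at 10.94, 10.41 and 10.10, a decrease of 1.43 ± 0.23, and Panx3 lower by 1.17 ± 0.16. Ifitm5 did not pass without P13 replicate 2 (adjusted p = 0.0567). Of 16 osteoclast genes 2 fell and 1 rose, with a median of -0.91. Without P13 replicate 1, 12 of them fell. The mean over that list was 10.28 in P13 replicate 1 and 9.45 and 9.12 in the others, against 10.22 to 10.57 at P7.

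**Figure D4:**
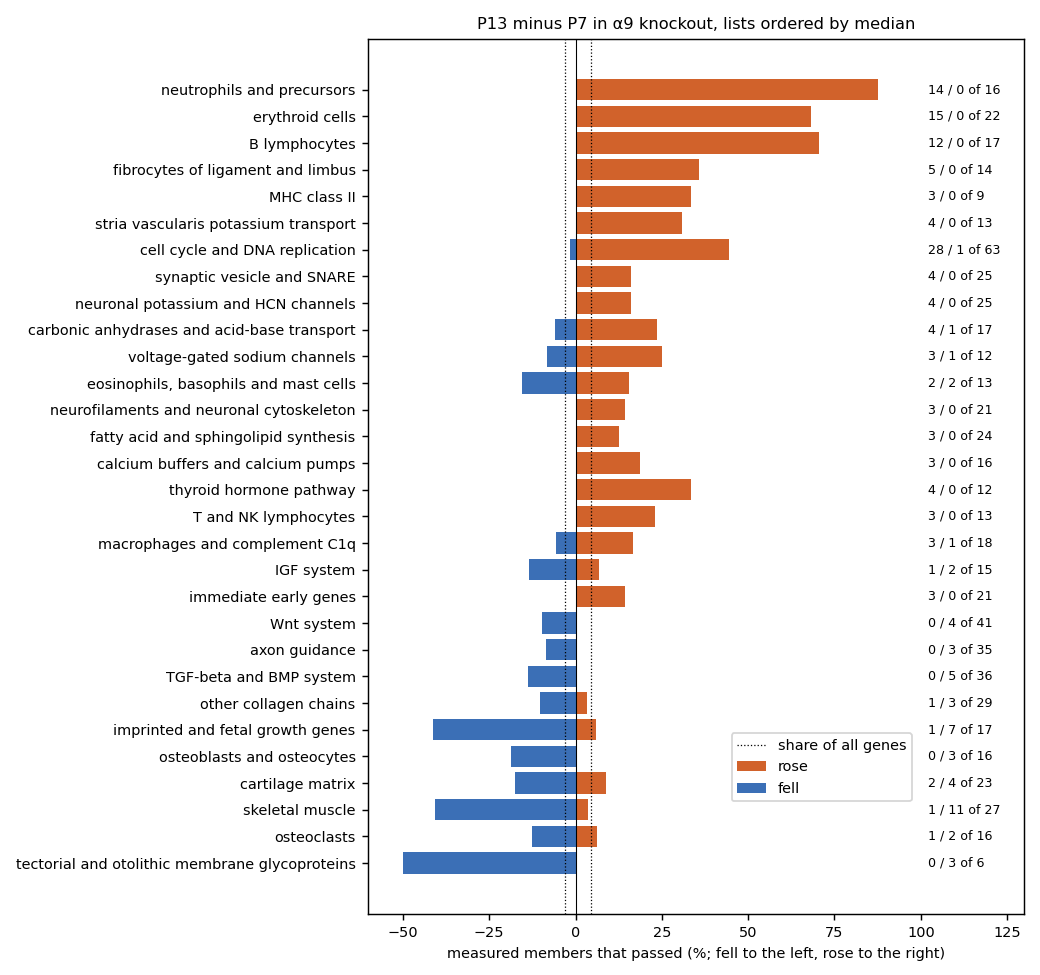
Share of the measured members of each list that rose (right) or fell (left) from P7 to P13 in the knockout, for the 30 of 60 lists with 3 or more members that passed, ordered by median difference, with the counts that rose and fell of those measured at the right and dotted lines at the shares of all genes (4.36% and 2.92%). Neutrophil, B lymphocyte and erythroid lists reach 87.5%, 70.6% and 68.2%, and the tectorial list, of 6 genes, has 3 that fell.

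Few genes of the respiratory chain and the proteasome passed, where 4.36% of all genes rose and 2.92% fell. In the respiratory chain list 1 of 74 rose (Cox8b, 1.53 ± 0.32, not without P7 replicate 1 or replicate 3 or P13 replicate 2 or replicate 3, adjusted p of up to 0.115) and 0 fell. By limma's unadjusted p under 0.05, 3 of that list were higher and 3 lower. In the proteasome list 0 of 34 passed by limma, 2 were higher and 1 lower by the unadjusted p under 0.05, and 0 rose or fell with any 1 array left out. In the list of cytosolic ribosomal proteins, whose many pseudogenes can share probes, 2 of 44 fell (4.55%; Rpl37 by 1.28 ± 0.16 and Rpl14 by 0.86 ± 0.18), and Rpl14 passed without P13 replicate 1 but not without any of the other arrays (adjusted p of up to 0.134). Most members of that list, 39, had a difference below 0, with a median of -0.17. Of the 44, 17 were lower on each P13 array than on each P7 array, a larger share than the 17.1% of all genes. By limma's unadjusted p under 0.05, 0 were higher and 11 lower. Among vessel genes 2 of 25 rose, the endothelial Vwf by 1.83 ± 0.19 and the pericyte channel subunit Abcc9 by 0.72 ± 0.17, and the call of Abcc9 was lost without any array but P13 replicate 1. Vwf is also made by megakaryocytes, the source of platelets and of Ppbp.

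The change from P7 to P13 was then set against the same change in wild type cochleae. Of the 145 genes named by rule that passed in the knockout, 141 moved in the same direction in the wild type. Tectb fell by 3.81 in the knockout and by 3.88 in the wild type, and Fcrla rose by 4.41 and 5.13. The difference of the changes passed for 2 genes of 18195 (0.011%), where 2774 (15.2%) had an unadjusted p under 0.05. The skeletal muscle list had medians of -0.70 in the knockout and 0.56 in the wild type, and the difference passed for 0 of its 27 members. Of the wild type arrays, P13 replicates 1, 2 and 3 had Gapdh control differences of 6.302, 6.47 and 2.43, so the wild type values at P13 come from RNA with less 5 prime signal. The count of genes that passed depended on those arrays: it was 0 without P13 wild type replicate 1, 30 without replicate 2 and 413 without replicate 3, and 17 without both replicates 1 and 2, which left 1 wild type array at P13. It was 5 without P7 wild type replicate 1, 3 without P7 knockout replicate 3, 1 without P7 knockout replicate 2 or P13 knockout replicate 1, and 0 without P7 knockout replicate 1 or P13 knockout replicate 2 or replicate 3.

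**Figure D5:**
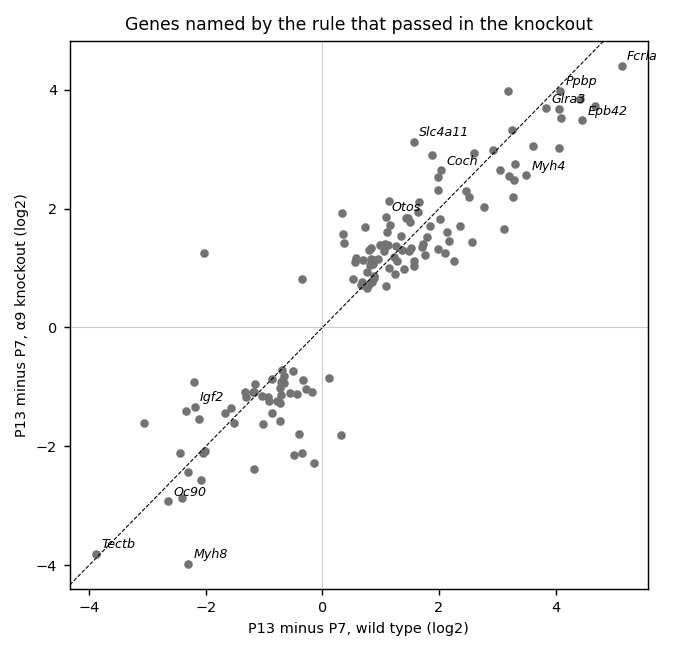
Difference between P13 and P7 (log2) in the wild type (horizontal) and in the knockout (vertical) for the 145 genes named by rule that passed in the knockout, with a dashed line where both are equal. Genes were chosen by their change in the knockout, and 4 lie on opposite sides of 0, of which Map1b rose by 1.25 in the knockout and had a wild type difference of -2.03.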

How the data were processed

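RNA of pooled cochleae had been hybridised to Affymetrix mouse genome arrays. The authors deposited log2 signals for 45101 probe sets, made with RMA background correction, quantile normalization and a Tukey biweight summary. These were quantile-normalized again over the 24 arrays. Of the probe sets, 34958 name 1 gene, 932 name several and 9211 have no gene in the platform annotation used. The probe set of highest mean stood for each of 18195 genes. The test of age, on 3 arrays per group and without covariates, was lmFit and eBayes of limma (version 3.58.1, R 4.3.3), adjusted by Benjamini-Hochberg over all genes, and the change was set against wild type by an interaction contrast over 12 arrays. Confidence intervals are 95%. The procedure was also run on simulated data with noise independent between genes, unlike the shifts of whole pools described above.

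The gene lists, of which 1191 of 1338 genes were measured, and the comparison itself were chosen with earlier results of these data known. Named were Chrna9, the 12 largest increases and 12 largest decreases that passed at 1.5 without overlap of arrays (no clone names, no sex-linked markers) and up to 4 genes per list that passed. Genes outside this rule were markers of cell types set in the plan, or were picked after their values were seen. The labels call the arrays of a group biological replicates and the methods describe pools of cochleae, so p-values measure the spread between pools. The number of arrays limits precision, and read depth does not apply. Alternatives covered normalization, probe set choice, filters, array weights, blocks and leaving out arrays. Promoters are RefSeq windows (GRCm38.p6).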

Additional observations from a re-analysis of the deposited data

Results flagged for a closer look

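The change from P7 to P13 differed between the knockout and the wild type for 2 genes by the limma interaction contrast. Dapk3, a kinase linked to cell death, had an interaction of 3.20 ± 0.39 (log2, SE; adjusted p = 0.019). In the knockout it measured 7.95, 7.98 and 8.47 at P7 and 7.71, 7.502 and 7.24 at P13, a difference of -0.65 that did not pass, and in the wild type the mean went from 7.997 to 4.15. P2ry10, a receptor of lymphoid cells, had an interaction of -2.08 ± 0.23 (adjusted p = 0.0156), with differences of 0.99 in the knockout and 3.07 in the wild type. Without wild type P13 replicates 1 and 2, the arrays of lowest 5 prime signal, the wild type had 1 array at P13, assumed to vary like the other groups. Dapk3 then had an interaction of 3.24 and no longer passed (adjusted p = 0.063), and P2ry10 had -1.99 and passed (adjusted p = 0.0469).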

How the results depend on the processing

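With the deposited values used without further normalization 1804 genes rose and 218 fell, 372 and 28 of them at 1.5 or more, and the change differed between genotypes for 4. With the probe set of highest variance 488 rose and 224 fell, and Apod had a difference of -0.093 (adjusted p = 0.942). Of 69 named genes that passed and had several probe sets, 9 had a probe set of opposite sign. They were Apod, Chrna3, Kcna2, Kcnip2, Klf9, Lyz1, Napb, Thrsp and Tpsb2. A probe set passed in the opposite direction for 0 of the 69. Array weights gave 2121 and 2665, with 125 that fell by at least 1.5. The 4 arrays without poly-A controls gave 1262 and 1798, with 204 that fell by at least 1.5. Among genes above the median level 124 rose and 29 fell by at least 1.5, and at a difference of at least 1 these counts were 526 and 235. Replicate numbers did not pair the samples (correlations of deviations 0.06, -0.17 and -0.01), and with the replicate block 569 rose and 315 fell and the genotype difference passed for 24 genes. That count was 17 without wild type P13 replicates 1 and 2, of low 5 prime signal, 9 with median centring, 1 in the fit over all 24 arrays, 1 with the mean of probe sets and 0 among genes above the median level. With 1 array left out, 264 to 968 genes rose, 80 to 865 fell, 168 to 323 rose and 32 to 121 fell by at least 1.5, and 0 to 413 differed between genotypes. Of 151 named genes that passed, 57 passed in all 6 such fits. Over all settings 2303 of 2823 recomputed calls held, 519 were lost and 1, of Apod, reversed. Of 2280 list counts 1686 stayed within 1.5 times. The arrays carry no detection calls, so changes of dim genes are the least certain.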
